A study of Canis lupus familiaris with 11 samples.

Results

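The comparison described here is that of wild-type MDCKII cells after lateral compression with wild-type cells that were not compressed. MDCKII is a dog kidney epithelial line that grows into a tight, polarised sheet. The 6 wild-type (WT) libraries, 3 control and 3 compressed, were taken by their labels from the 11 libraries of the series, the other 5 being LMNA knockout (KO) cells. WT control cells were grown for 3 to 4 d to confluence and collected. WT compressed cells were grown for the same time, compressed sideways and collected after 2 h of recovery. The WT groups carry no transgene or knockout by the labels, and both come from 1 line. The labels give no sham handling and no recovery time for the controls, so compression, handling and the recovery period cannot be told apart. They also do not say that replicates were separate cultures, so p-values speak of the spread among these libraries, which could be technical alone. The design text of the series names other time points, and the sample labels were followed here.

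Crowding an epithelial sheet squeezes its cells and their nuclei. Cells are known to sense such changes through stretch-gated ion channels, adhesions and caveolae, the actin cortex and the nuclear envelope. Growth-factor and ERK signalling is known to switch on immediate early genes within minutes to hours, among them the subunits of the transcription factor AP-1. Interferon-stimulated genes are a separate programme, known to be switched on when cells detect viral or misplaced nucleic acid. The measurements below are RNA levels, and in bulk RNA fewer cells of a kind and less RNA per cell cannot be told apart.

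The 6 libraries held 10420214 to 15895296 counts, and 2 of them stood apart. WT compressed replicate 3, the shallowest, differed from the other compressed libraries by a root mean square of 0.718 and 0.771 on the log2 scale, against 0.469 between those. WT control replicate 1 differed from the other controls by 0.736 and 0.597, against 0.434 between those, and 3.84% of its counts were mitochondrially encoded, against 2.61% to 2.71% in the other controls and 2.07% to 2.22% in compressed cells. The sheet's identity was checked on 15 kidney epithelial markers, which summed to 4983, 8451 and 7016 counts per 1e6 (CPM, scaled to equal library composition) in controls and to 6540, 6345 and 6373 CPM in compressed cells. E-cadherin (CDH1) stood at 120 to 151 FPKM (counts per kilobase and per 1e6) and keratin 8 (KRT8) at 1025 to 1973 FPKM, while the kidney cadherin CDH16 was near 0, at no more than 0.23 FPKM. The 13 fibroblast and smooth muscle markers summed to 28.9 to 31.8 CPM in controls and 25.1 to 26.8 CPM in compressed cells, with LUM, DCN, DPT, ACTA2 and CNN1 at 0 in all 6. The 13 immune markers summed to 8.97 to 11.3 against 5.46 to 8.72 CPM, with PTPRC, CD3E, CD3D, MS4A1 and AIF1 at 0. The 11 endothelial markers summed to 63.4 to 120 against 90.5 to 104 CPM, nearly all of it FLT1, with EMCN and ERG at 0.

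After compression 7 of 27 antiviral genes and 14 of 50 spindle and kinetochore genes had risen and 0 in either list had fallen. Of 12 AP-1 subunits 5 had fallen, and of 12 Eph receptors and ephrins 3, with 0 that rose. By edgeR's quasi-likelihood test with Benjamini-Hochberg adjustment, 848 of 13560 genes (6.25%) had an adjusted p under 0.05 and are called here. Of these, 522 (3.85%) were higher after compression and 326 (2.4%) lower. The called increases had a median log2 fold change of 0.83 and the called decreases one of -1.05. These shares are the background for each count of called members below. Over all genes the median was -0.02, with quartiles of -0.46 and 0.36. The difference between KO and WT cells in their answer to compression was called for 0 genes by edgeR, with 650 genes at an unadjusted p under 0.05, so no gene below is shown to respond in WT cells alone.

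The calls lie close to the threshold, with adjusted p-values of 0.041 to 0.0499, and their number turned on single libraries. When WT control replicate 1, 2 or 3 was left out, edgeR called 1379 (10.2%), 1 and 1 genes. When WT compressed replicate 1, 2 or 3 was left out, it called 0, 0 and 1. The KO libraries enter this fit through the shared estimate of spread, the scaling and the filter on low counts, yet it called 0 genes without either KO control and 3067 without KO compressed replicate 2. Genes with an unadjusted p under 0.05 numbered 4307 with all libraries, and 4827, 2910 and 3234 without controls 1, 2 and 3, 3276, 4245 and 2457 without compressed 1, 2 and 3, and 3897 and 3899 without either KO control. A fit of the 6 WT libraries alone called 2069 genes (16.3%), 1029 higher (8.09%) and 1040 lower (8.18%), and 842 of the 848 were among them. In 846 of the 848 the control and compressed libraries did not overlap, the exceptions being RHOJ and a locus matched to ATP5PO, and over all genes 42% showed no overlap. A called gene whose groups do not overlap cannot change sign when 1 library is left out, so the signs of called genes say nothing of their stability.

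Leaving out WT control replicate 1 changed which genes were called. Of the 848 genes, 673 were called again without it, and 706 others were called there and not with all libraries. That fit called 914 genes higher (6.77%) and 465 lower (3.44%). In the WT libraries alone without it, 4549 genes were called (35.1%), 2305 higher (17.8%) and 2244 lower (17.3%). The median of the called increases went from 0.83 to 0.89 and that of the called decreases from -1.05 to -1.02. For 27 of the 848 genes the log2 fold change moved by more than 0.5, shrinking in 23 and growing in 4. WT control replicate 1 was the highest control in 136 of the 326 decreases and the lowest in 116 of the 522 increases. WT compressed replicate 3 was the most extreme compressed library more often, the lowest in 252 decreases and the highest in 417 increases.

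**Figure D1:**
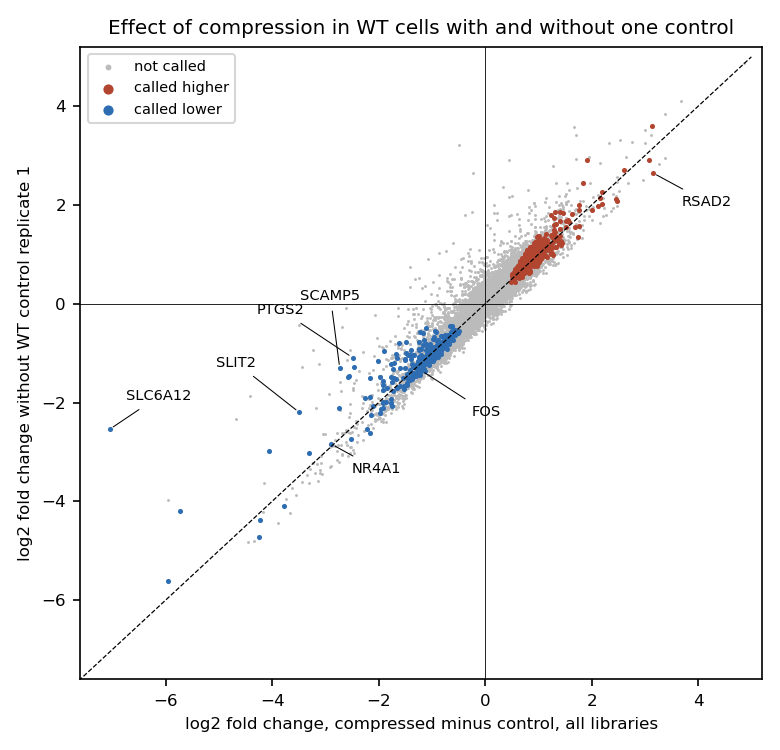
Log2 fold change of each gene with all libraries (x axis) and without WT control replicate 1 (y axis), compressed minus control, with the 522 called increases in red, the 326 called decreases in blue and genes not called in grey; the dashed line marks equal values. Most called genes lie near the line, while SLC6A12 moves from -7.05 to -2.54 and PTGS2 from -2.49 to -1.09.

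The direction of change also went with where a gene lies. Genes were divided into quintiles by the number of protein-coding genes within a window of 1 Mb around them. The median log2 fold change was 0.24 in the sparsest quintile, then 0.22, 0.07 and -0.19, and -0.46 in the densest. In the sparsest quintile 198 genes were called higher and 27 lower, and in the densest 11 were called higher and 137 lower. The libraries formed a graded series in it. From the sparsest to the densest quintile the median level, relative to the mean of the 6 libraries, went from -0.26 to 0.42 in control 2, from -0.11 to 0.21 in control 3 and from 0.00 to 0.05 in control 1. It went from 0.12 to -0.17 in compressed 1, from 0.07 to -0.06 in compressed 2 and from 0.18 to -0.39 in compressed 3. Control 1 and compressed 2 were in the middle of that order. What sets this pattern was not tested. A fit that removed it from each library called 421 genes (3.1%), 231 higher (1.7%) and 190 lower (1.4%), and 344 of them were among the 848. Values from that fit are given below as density-corrected. Of the 149 called genes chosen to be named, 72 were not called by it.

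**Figure D2:**
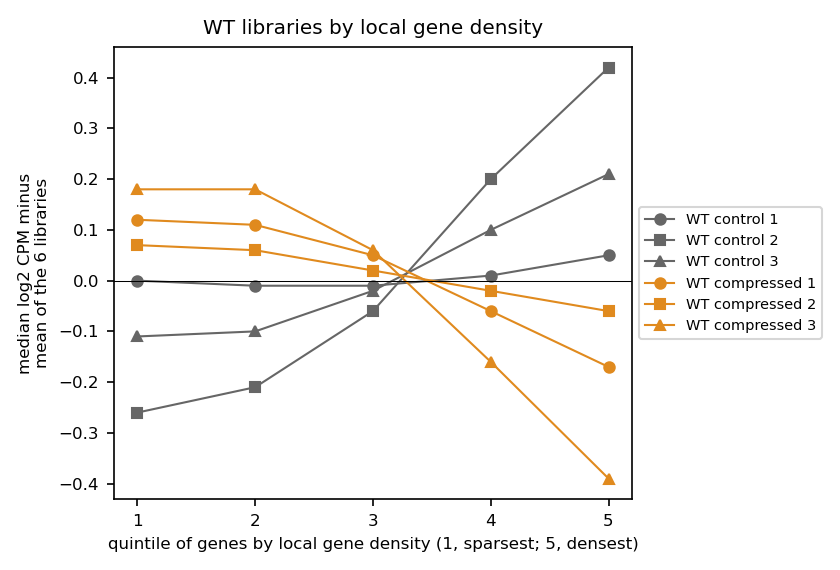
Median log2 CPM of genes minus the mean of the 6 WT libraries (y axis) by quintile of local gene density (x axis), one line per library, controls grey and compressed orange. Controls 2 and 3 rise towards gene-dense regions and all compressed libraries fall, most of all compressed 3, which ends at -0.39.

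Among interferon-stimulated genes, 7 of 27 antiviral effectors rose and 0 fell, which is 25.9% against 3.85% of all genes, and 25 of the 27 had positive values. Their median log2 fold change was 0.83, 0.72 without WT control replicate 1 and 0.87 density-corrected. Without that control 4 of the 27 were called higher, against 6.77% of all genes, and density-corrected 4 were, against 1.7%. RSAD2, which encodes the antiviral enzyme viperin, lies on chromosome 17 from 4488288 to 4508752 in CanFam3.1. Its RNA stood at 2.2, 33.8 and 9.64 CPM in controls 1 to 3 and at 203, 128 and 76.4 CPM in compressed 1 to 3. The groups did not overlap, but control 1 was far under the other controls. Its log2 fold change was 3.15 ± 0.72 (SE), 2.65 without control 1, and between 2.65 and 4.48 as each WT library was left out. IFI44L, an interferon-induced gene, was low throughout, at 3.78, 6.37 and 4.15 CPM against 25.4, 22.7 and 14.2 CPM, a change of 2.12 ± 0.45. SAMD9L, an antiviral factor that restrains protein synthesis, was the steadiest, at 202, 190 and 187 CPM against 458, 391 and 399 CPM. Its change was 1.11 ± 0.22, and 1.14 without control 1. OAS2, which makes the second messenger that activates RNase L, went from 117, 161 and 140 to 279, 253 and 213 CPM. HERC6, IFI44 and RTP4 were the other called effectors. OAS2, IFI44 and RTP4 were not called without control 1, at 0.72, 1.20 and 1.35, and HERC6, IFI44 and RTP4 not when density-corrected.

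Of the sensors upstream of this programme 4 of 12 rose (33.3%) and 0 fell, with a median of 0.30, or 0.34 density-corrected. Without WT control replicate 1 the median was 0.48, with 4 called higher (33.3% against 6.77% of all genes) and 1 lower (8.33% against 3.44%). Density-corrected, 2 were called higher (16.7% against 1.7%). DDX58, which encodes the RNA sensor RIG-I, stood at 13.5, 12.3 and 10.4 CPM in controls and 34.7, 26.7 and 25.1 CPM after compression. IFIH1, encoding the sensor MDA5, stood at 36.9, 39.8 and 42.1 against 85.9, 75.6 and 81.5 CPM. In both genes every compressed library was well above every control, and the log2 fold changes were 1.26 ± 0.27 and 1.03 ± 0.21. TLR3, the endosomal receptor for double-stranded RNA, was lower in level and moved from 8.27, 5.83 and 6.78 to 15.7, 14 and 22.6 CPM. DDX60 rose by 2.48 ± 0.60, but was not called without control 1, where its value was 2.08 with an edgeR adjusted p of 0.0505. Neither DDX60 nor TLR3 was called density-corrected. Of 18 signalling factors 1 rose (5.56% against 3.85%), the ubiquitin ligase DTX3L, at 19.5, 40.1 and 25.7 against 98.2, 72.8 and 61.4 CPM. Not all of the classic targets separated the groups. MX1 stood at 12, 17.4 and 8.97 against 54.3, 33.6 and 16.5 CPM, and ISG15 at 18, 44.9 and 27.7 against 67, 54.5 and 26.9 CPM. In both, compressed 3 overlapped the controls and the gene was not called. MX1 and ISG15 were picked after their values were seen. In antigen presentation 0 of 16 genes were called, with 8 positive and 8 negative values. The median was 0.04, -0.12 without control 1 and 0.26 density-corrected. B2M, the shared light chain of class I molecules, stood at 133, 135 and 148 against 222, 176 and 218 CPM, with an edgeR adjusted p of 0.0541. CALR went the other way, at 507, 620 and 617 against 435, 478 and 454 CPM. Its change was -0.35, with an edgeR adjusted p of 0.107, and 0.01 density-corrected.

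**Figure D3:**
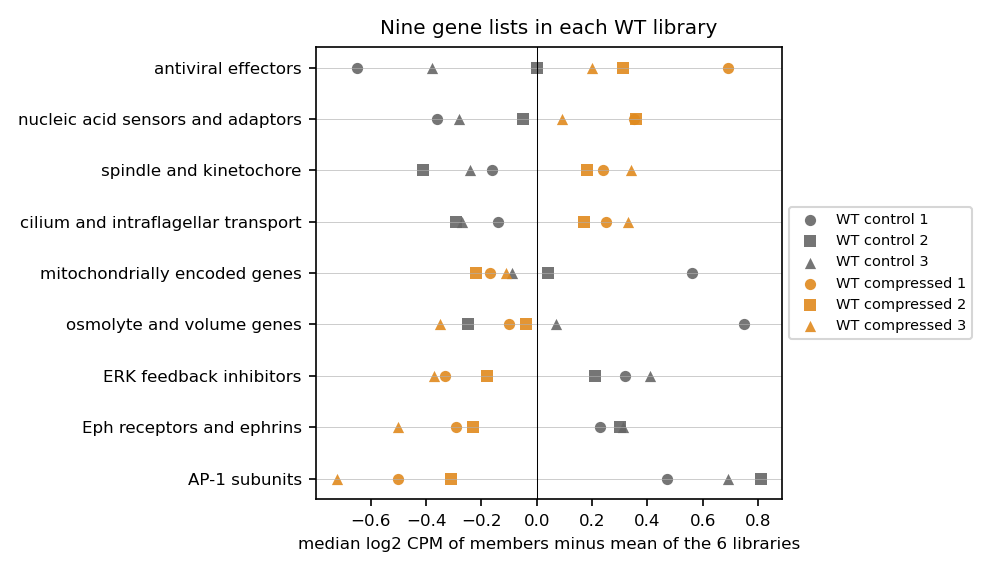
Median log2 CPM of the members of 9 gene lists minus the mean of the 6 WT libraries (x axis), one point per library, controls grey and compressed orange. Antiviral effectors run from -0.65 in control 1 to 0.69 in compressed 1, AP-1 subunits from -0.72 in compressed 3 to 0.81 in control 2, and the mitochondrially encoded and osmolyte lists are set apart in control 1 (0.56 and 0.75).

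Some immediate early genes had fallen 2 h after compression and others were not called. Of 12 AP-1 subunits 5 fell (41.7% against 2.4% of all genes) and 0 rose, and all 12 had negative values. The median was -1.23, -1.32 without WT control replicate 1 and -0.83 density-corrected, where 3 of the 12 were called lower (25% against 1.4%). FOS, on chromosome 8 from 48330836 to 48334338, stood at 62.2, 96.9 and 82.5 CPM in controls and 30.8, 35.2 and 39.4 CPM after compression. Every compressed library was under every control, and FOS fell by 1.2 ± 0.18 on the log2 scale. It was also 1 of the 8 genes called when both libraries that stood apart were left out, with a log2 fold change of -1.44 and an edgeR adjusted p of 0.0255. MAFK, a small MAF protein that pairs with other subunits and lacks an activation domain, had the tightest values, at 17.7, 19 and 21.1 against 5.99, 6.77 and 6.25 CPM. It changed by -1.60 ± 0.26. The related MAFF went from 60.6, 43.1 and 50.7 to 18, 22.8 and 26 CPM. FOSL1, which encodes FRA1, went from 43.7, 60.5 and 58.0 to 16.8, 24.3 and 23.2 CPM, and MAFG fell as well. Density-corrected, FOSL1, MAFF and MAFG were not called, at -0.79, -0.86 and -0.80. JUN, the partner of FOS, was not called, at 19.9, 27.2 and 26.7 against 17.1, 23.1 and 13.3 CPM, and its libraries overlapped. JUN was picked after its values were seen.

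Of 27 other immediate early factors 5 fell (18.5%) and 0 rose, with a median of -0.67, -0.78 without control 1 and -0.64 density-corrected. NR4A1, an orphan nuclear receptor, was scarce and stood at 6.77, 3.82 and 8.30 against 0.538, 1.19 and 0.807 CPM. The change was -2.89 ± 0.55 and ranged from -3.23 to -2.64 as each WT library was left out. CSRNP1, a nuclear factor, stood at 58, 51.2 and 55.5 against 16.4, 24.5 and 18.8 CPM, a change of -1.46 ± 0.20. In IER3, a survival gene, control 1 was high, at 166 CPM against 63.1 and 60.3 in the other controls and 22.6, 27.6 and 14.6 CPM after compression. Without control 1 its change went from -2.16 to -1.51 and the call was lost, with an edgeR adjusted p of 0.0545. IER5L and the kinase PLK2 also fell, PLK2 not being called without control 1, at -0.80, and IER5L not when density-corrected. EGR1, the best known of the group, did not separate, at 15, 36.5 and 25.9 CPM in controls and between 18.8 and 22.7 CPM after compression, and was picked after its values were seen.

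Of 20 inhibitors that ERK signalling induces as its own brakes, 3 fell (15% against 2.4%) and 0 rose. In all 18 had negative values, with a median of -0.63, -0.60 without control 1 and -0.80 density-corrected. Called lower were 6 without control 1 (30% against 3.44% of all genes) and 2 density-corrected (10% against 1.4%). PHLDA1, a pleckstrin-homology protein, had nearly equal controls, at 50, 53.4 and 52.2 CPM, against 14.2, 19.2 and 13.3 CPM, and changed by -1.73 ± 0.34. SPRY2, which encodes the Sprouty inhibitor of receptor tyrosine kinases, stood at 35.9, 32.5 and 44.3 against 15.4, 22.8 and 22 CPM. SPRED3 was called with control 1 and lost without it, where its change was -1.49 with an edgeR adjusted p of 0.0782, and was not called density-corrected. The MAPK phosphatase DUSP6, picked after its values were seen, was not called but did not overlap, at 134, 110 and 110 against 84.0, 89.6 and 84.9 CPM.

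Among receptors and ligands, 3 of 12 Eph family genes fell (25% against 2.4%) and 0 rose. Eph receptors and their ephrin ligands signal between touching cells and are known to set boundaries in epithelia. All 12 had negative values. Their median was -0.63, -0.69 without control 1 and -0.56 density-corrected, where the count of decreases was again 3 (25% against 1.4%). EPHA2, the most abundant of those called, lies on chromosome 2 from 81534076 to 81561847. It stood at 554, 469 and 500 CPM in controls and 157, 203 and 211 CPM after compression, a clear gap, and changed by -1.41 ± 0.24. The ligand EFNB2 stood at 20.2, 9.45 and 12.1 against 5.69, 4.57 and 4.34 CPM. EPHB2 moved less, from 139, 133 and 136 to 90.6, 92.8 and 80.7 CPM, a change of -0.62 ± 0.15. In the EGF family 1 of 13 fell (7.69%), the inactive rhomboid RHBDF1. Of 24 other growth factors and receptors 4 fell (16.7%), FGFR4, VEGFB, IGFBP4 and IGFBP6, and 0 rose. FGFR4 stood at 72.7, 43.0 and 39.9 against 22.9, 28.4 and 14.3 CPM and was not called without control 1, at -0.92, nor was IGFBP4, at -1.32. In that fit 2 of the 24 were called higher (8.33% against 6.77% of all genes) and 3 lower (12.5% against 3.44%). In Notch signalling 2 of 16 fell (12.5%), the ligand JAG2, at 13.1, 11.7 and 11.7 against 5.61, 6.18 and 2.42 CPM, and the receptor NOTCH1. NOTCH1 had a high control 1, at 25.8 CPM against 10.3 and 10.5, and was not called without it, at -1.09. In Wnt signalling the receptor LGR4 rose, from 37.2, 34.7 and 37.4 to 56.6, 56.0 and 63.3 CPM, and the Wnt-inactivating enzyme NOTUM and the transcription factor TCF7 fell, among 30 tested (3.33% and 6.67%). NOG, the secreted BMP antagonist noggin, was the 1 gene called among 34 of the TGF-beta and BMP pathways, at 4.25, 8.11 and 7.39 against 2.38, 1.86 and 1.51 CPM. Density-corrected, RHBDF1, VEGFB and LGR4 went to -0.54, -0.45 and 0.44, and neither they nor FGFR4, IGFBP4, IGFBP6, JAG2, NOTCH1 and NOTUM were called.

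Several inflammatory genes had a high value in WT control replicate 1. PTGS2 encodes cyclooxygenase 2, the inducible enzyme of prostaglandin synthesis, and lies on chromosome 7 from 19668011 to 19674918. It stood at 4620, 477 and 1085 CPM in controls 1 to 3 and at 292, 403 and 403 CPM after compression. The groups did not overlap, but control 2 was close to compressed 2 and 3. PTGS2 fell by 2.49 ± 0.61 on the log2 scale with all libraries, and the value was -1.09, with an edgeR adjusted p of 0.0675, without control 1. The cytokine LIF kept its call, at 88.7, 44.3 and 53.1 against 14.8, 20.1 and 14.5 CPM, with changes of -1.91 ± 0.34 and -1.56. CSF2, which encodes GM-CSF, stood at 87.0, 22.5 and 43.0 against 5.38, 8.89 and 8.47 CPM. It was not called without control 1, at -2.12 with an edgeR adjusted p of 0.0665, and density-corrected its adjusted p was 0.0504. LIF and CSF2 were the 2 called of 9 cytokines and chemokines tested. Of 22 NF-kB factors and feedback genes edgeR called 0, and NFKBIA, the inhibitor that NF-kB itself induces, stood at 49.6, 11.4 and 17.3 against 9.22, 9.65 and 10.2 CPM. PTGES3, a cochaperone that also carries prostaglandin synthase activity, rose from 546, 440 and 477 to 743, 663 and 755 CPM. It and PTGS2 were the 2 called of 12 prostaglandin genes.

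The genes whose effect moved most without control 1 shared this shape. SLC6A12, the betaine and GABA transporter, stood at 91.4 CPM in control 1, 1.48 and 1.22 CPM in the other controls, and 0.461, 0.169 and 0 CPM after compression. Its change of -7.05 ± 1.85 on the log2 scale became -2.54, which was not called, with an edgeR adjusted p of 0.19. SCAMP5, a secretory carrier membrane protein, stood at 322, 43.8 and 62.9 against 23.1, 29.2 and 12 CPM, and its log2 change went from -2.73 to -1.31, which was not called. SLIT2, which encodes a secreted guidance protein and is matched here by protein similarity at 1 of 2 loci of that name, stood at 151, 26.4 and 30.2 against 6.07, 7.36 and 4.94 CPM. It was called both ways, at -3.49 ± 0.72 and -2.20. AGFG2 likewise remained called, at -1.90 ± 0.44 and -0.96. KIAA1199, which acts on hyaluronan, the small GTPase RHOJ and the lipoxygenase ALOX15B were not called without control 1, at -1.28, -1.46 and -1.48. The osmolyte and volume list as a whole had 3 of 17 called lower (17.6% against 2.4% of all genes) and 1 higher (5.88% against 3.85%). It went from a median of -0.52 to -0.07 without control 1. AKR1B1, the sorbitol-making aldose reductase, was part of it, at 347, 132 and 121 against 77.0, 90.9 and 87.9 CPM, and was not called without control 1, at -0.57. SLC6A12, SCAMP5, AGFG2, KIAA1199 and ALOX15B were also not called density-corrected.

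**Figure D4:**
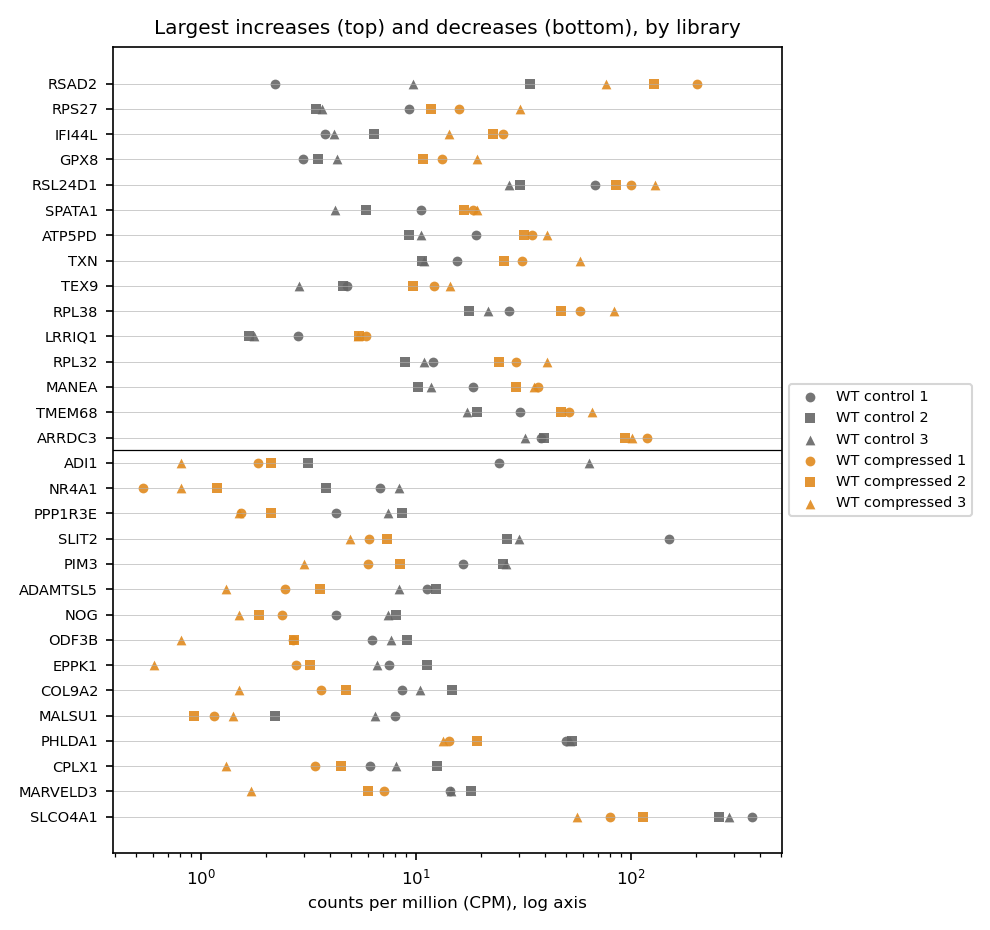
CPM in each WT library (log axis) of the 15 called genes with the largest increases and the 15 with the largest decreases in the fit without WT control replicate 1, controls grey and compressed orange, marker shape giving the replicate. The genes were chosen among those whose groups do not overlap, RSAD2 spans 2.2 to 203 CPM, and control 1 is the far point for SLIT2 at 151 CPM.

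Ranked without control 1, the largest increases with a symbol were RSAD2 and several loci of housekeeping genes. RSL24D1, a factor of large-subunit ribosome assembly, stood at 68.2, 30.6 and 27.0 against 99.8, 85.2 and 129 CPM, and changed by 1.32 ± 0.30, or 1.86 without control 1. ARRDC3, an arrestin-like protein, stood at 38, 39.2 and 32.1 against 119, 93.9 and 101 CPM, a change of 1.52 ± 0.30 that hardly moved, to 1.55. MANEA, a mannosidase of the Golgi, stood at 18.4, 10.2 and 11.8 against 37, 29.1 and 35.5 CPM. Loci named RPS27, RPL32, RPL38, ATP5PD, TXN and GPX8 also belong here. These are uncertain, since 2 to 47 loci carry each of those symbols and reads of near-identical copies could be split between them. The largest decreases were led by an ADI1-like locus of a scaffold with no chromosome, at 24.4, 3.15 and 63.7 against 1.84, 2.12 and 0.807 CPM, which is uncertain for the same reason, and by NR4A1. PIM3, a serine and threonine kinase, stood at 16.5, 25.4 and 26.3 against 5.99, 8.46 and 3.03 CPM. SLCO4A1, an organic anion transporter, was the most abundant, at 364, 256 and 285 against 80.2, 114 and 55.9 CPM, a change of -1.85 ± 0.39 and of -1.70 without control 1. MARVELD3, a tight-junction protein, stood at 14.4, 18 and 14.6 against 7.07, 6.01 and 1.71 CPM, with compressed 3 the lowest. The same library was lowest for the matrix genes COL9A2 and ADAMTSL5 and the cytolinker EPPK1. The RPS27 locus, COL9A2 and EPPK1 were not called density-corrected.

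Of the called genes with the highest FPKM, all 10 rose. SPP1, which encodes the secreted phosphoprotein osteopontin, was the most abundant, at a mean of 7927 FPKM. It stood at 6181, 10099 and 10243 CPM in controls and 15672, 13778 and 18032 CPM after compression, so control 1 was the lowest, and its change was 0.84 ± 0.21, or 0.64 without control 1. ANXA1, the phospholipid-binding annexin A1, averaged 1268 FPKM and stood at 1885, 2319 and 2392 against 4138, 3470 and 4764 CPM. It rose by 0.91 ± 0.16. PTMA, the small acidic nuclear protein prothymosin, stood at 1479, 1288 and 1214 against 2303, 2092 and 2643 CPM. S100A6, a calcium-binding protein, moved less, by 0.58 ± 0.16. SPP1 was not called density-corrected, at 0.65, nor were NPM1 and the loci of RPL39, RPS3A and RPS15A, also among the 10.

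Of matrix and basement membrane genes a minority fell. Of 15 laminin and basement membrane genes 2 fell (13.3%) and 0 rose, with a median of -0.43, -0.56 without control 1 and -0.59 density-corrected. LAMB3, a chain of the laminin that anchors epithelium to its base, stood at 426, 360 and 323 against 214, 210 and 118 CPM. It was not called without control 1, at -0.92. Of 20 fibrillar matrix and crosslinking genes 4 fell (20%) and 1 rose (5%). Their median was -0.65, -0.48 without control 1 and -0.62 density-corrected. Without control 1, 2 of the 20 were called higher (10% against 6.77% of all genes) and 1 lower (5% against 3.44%). Density-corrected, 5 were called lower (25% against 1.4%) and 0 higher. The 4 that fell with all libraries were CYR61, CTGF, LOXL2 and FBLN1. CYR61, a matricellular protein, stood at 244, 217 and 242 against 113, 116 and 161 CPM. CTGF was high in control 1, at 43.1 CPM against 13.5 and 15.7 in the other controls and 8.45, 6.43 and 10.8 CPM after compression, and went from -1.49 to -0.77 without it. CYR61, CTGF, FBLN1 and LOXL2 were all short of the threshold without control 1, CYR61 with a change of -0.82 and an edgeR adjusted p of 0.0503. P4HA1, which hydroxylates collagen, was the 1 that rose, from 118, 95 and 92.5 to 145, 138 and 190 CPM, and was not called density-corrected. Of 21 pericellular proteases and inhibitors edgeR called 0, and 17 had negative values, a median of -0.49. TIMP1, the secreted protease inhibitor, stood at 171, 81.1 and 98.5 against 49.6, 57.3 and 48.9 CPM.

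At adhesions and junctions the changes went both ways. CAV2, a coat protein of caveolae, the membrane pits that flatten under tension, was the 1 of 30 focal adhesion and mechanosensing genes that rose. It stood at 1320, 1049 and 1041 against 2394, 1930 and 2837 CPM and changed by 1.07 ± 0.22, or 1.19 without control 1. PTRF, which encodes cavin 1 of the same structure, fell, from 373, 335 and 343 to 228, 234 and 193 CPM, but its density-corrected change was -0.18. TNS4, a tensin, went from 330, 273 and 303 to 146, 164 and 150 CPM, and ZYX, the LIM protein zyxin, from 196, 164 and 164 to 87.4, 101 and 70.7 CPM. The list had 1 increase (3.33% against 3.85% of all genes) and 3 decreases (10% against 2.4%). Without control 1 it had 4 increases (13.3% against 6.77%) and 1 decrease (3.33% against 3.44%). Its median was -0.39, -0.26 without control 1 and -0.24 density-corrected. Of 16 integrins 1 fell, ITGB4 of the hemidesmosome, at 327, 394 and 369 against 246, 264 and 230 CPM, and its density-corrected change was -0.12. Of 22 claudins and tight-junction genes 2 rose and 0 fell. CLDN1, a sealing claudin, stood at 263, 252 and 215 against 416, 377 and 431 CPM. CLDN16, which serves divalent cations, stood at 115, 101 and 109 against 186, 176 and 209 CPM. The 2 genes are both on chromosome 34. The desmosomal cadherin DSC2 rose from 249, 274 and 323 to 454, 445 and 595 CPM, 1 of 17 desmosome and keratin genes. Among 15 cadherins and catenins edgeR called 0, and VEZT, which links cadherins to myosin, stood at 26.5, 29.6 and 27.3 against 47.9, 37.7 and 51.8 CPM, with an edgeR adjusted p of 0.0515. Of 21 polarity genes MARK2 and SLC9A3R1 fell. PTRF, ZYX, DSC2 and MARK2 were not called without control 1, at -0.63, -0.93, 0.74 and -0.55. Density-corrected, MARK2 and SLC9A3R1 went to -0.28 and -0.59, and neither they nor PTRF, ITGB4, ZYX, CLDN1 and DSC2 were called.

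Among channels that sense stretch or swelling, 4 of 26 fell (15.4%) and 0 rose, while the list's median was -0.28 and -0.09 density-corrected. PIEZO1, the stretch-gated cation channel, stood at 343, 351 and 335 against 196, 231 and 149 CPM. Its controls were nearly equal, and the change was -0.84 ± 0.20 with and -0.84 without control 1. TRPV4, an osmotically and mechanically gated channel, stood at 279, 259 and 241 against 142, 167 and 119 CPM. The others were the volume-regulated anion channel subunit LRRC8A and the potassium channel KCNK5, whose control 1 was high at 104 CPM against 39.4 and 44.6 CPM. TRPV4, LRRC8A and KCNK5 were not called without control 1, at -0.81, -0.53 and -0.59. Of 24 YAP and TEAD targets 4 fell (16.7%) and 0 rose, with a median of -0.29 and -0.28 without control 1. They were CYR61 and CTGF, given above, AJUBA, and ARHGEF17, at 44.3, 42.3 and 47.9 against 25.4, 30.0 and 21.5 CPM. Of 35 actin and SRF-linked genes 2 fell, the kinase LIMK2, which holds cofilin inactive and was not called without control 1, and MKL1, the actin-regulated coactivator of SRF. MKL1 stood at 114, 119 and 113 against 81.9, 83.4 and 55.0 CPM, and the median of that list was -0.21, or -0.06 density-corrected. AJUBA and LRRC8A went to -0.30 and -0.30 density-corrected and were not called, nor was LIMK2.

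At the nuclear envelope the counts turned on control 1. Of 24 lamina and LINC-complex genes 1 rose and 1 fell (4.17% each, against 3.85% and 2.4%), and the median was -0.06. Without control 1, 2 were called higher (8.33% against 6.77%) and 4 lower (16.7% against 3.44%). The inner-membrane protein gene TMEM194A rose, from 86.8, 90.3 and 88.3 to 146, 132 and 148 CPM, and TMEM201, of the same membrane, fell, from 21.1, 19 and 17.6 to 12.6, 8.63 and 8.47 CPM. LMNA itself was not called, at 678, 1208 and 933 against 841, 829 and 750 CPM. Of 29 nuclear pore genes NUP37 rose, from 30.6, 34 and 34.4 to 59.7, 58.5 and 64.0 CPM. Without control 1 the pore list had 4 increases (13.8% against 6.77%) and 1 decrease (3.45% against 3.44%). Of 16 genes of ESCRT-III and envelope repair VTA1 rose, a call lost without control 1, and of 31 heterochromatin genes HELLS, a chromatin remodeller, rose, at 118, 93.2 and 93.3 against 156, 139 and 218 CPM. With all libraries these shares were 3.45%, 6.25% and 3.23%, near the background. VTA1 and HELLS were not called density-corrected.

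Of 50 spindle and kinetochore genes, 14 rose (28% against 3.85%) and 0 fell, while 36 did not pass the test and 46 had positive values. The median was 0.51, 0.59 without control 1 and 0.48 density-corrected, with 18 (36% against 6.77%) and 7 (14% against 1.7%) called higher in those fits. In 35 of the 50 every compressed library was above every control, against 21.2% over all genes. KIF20B, a mitotic kinesin, stood at 80, 62.2 and 73.7 against 149, 132 and 174 CPM and changed by 1.08 ± 0.21. NDC80, which ties kinetochores to microtubules, stood at 30, 31.4 and 35.0 against 69.6, 58.6 and 82.8 CPM, a change of 1.13 ± 0.24. CENPK, of the inner kinetochore, stood at 15.7, 14 and 12.5 against 25.7, 26.2 and 30.4 CPM. KIF11, the motor that separates spindle poles, stood at 213, 175 and 191 against 356, 318 and 403 CPM. The others called were SPC25, CENPE, CENPN, CENPW, KIF15, KIF18A, HMMR, SGOL1, SGOL2 and ESCO2. In KIF20B, NDC80, CENPK and KIF11 compressed 3 was the highest library, and HMMR was not called without control 1, at 1.17. SPC25, CENPE, CENPN, CENPW, KIF18A, HMMR and SGOL2 were not called density-corrected. Of DNA replication genes 2 of 44 were called higher (4.55%), among them GINS4 (neither without control 1 nor density-corrected), 0 lower, with a median of 0.19 that was 0.05 density-corrected.

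The count of called cilium genes fell to the background once gene density was corrected for. The primary cilium is the sensory antenna of a resting epithelial cell. Of 46 genes 5 rose (10.9% against 3.85%) and 0 fell, and 38 had positive values, with a median of 0.52, 0.61 without control 1 and 0.43 density-corrected. Density-corrected, 1 was called higher (2.17% against 1.7% of all genes). IFT88, of the transport trains that build the cilium, stood at 4.17, 6.37 and 6.53 against 12.2, 9.14 and 13.3 CPM. TTC21B, of the trains that return from the tip, stood at 24, 32.4 and 35.9 against 62.1, 47.8 and 65.2 CPM. Neither was called without control 1, at 0.84 and 0.77. IFT74 and KIFAP3 rose as well, and density-corrected none of these 4 was called.

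Ribosomal and mitochondrial genes had small medians. Of 67 cytosolic ribosomal protein genes 6 rose (8.96% against 3.85%), 0 fell and 55 had positive values, with a median of 0.28, or 0.23 without control 1. Without control 1 the share called higher was 5.97% against 6.77% of all genes, and density-corrected it was 1.49% against 1.7%, so both were near the background. The whole set held 3.87% of counts in control 1, 4.77% and 4.71% in controls 2 and 3, and 4.97%, 4.74% and 5.47% after compression. RPS3A stood at 707, 746 and 805 against 1080, 983 and 1229 CPM, and RPL37 at 74.1, 69.7 and 86.3 against 126, 131 and 172 CPM. Such genes have many processed copies, here 17 and 6 loci of those names, so single values are uncertain, and RPL37 was not called without control 1. Of 44 nucleolar ribosome biogenesis genes 2 rose (4.55%), GAR1 (not without control 1) and NPM1, and of 41 splicing genes 1 fell, U2AF2, both near the background. Without control 1 the splicing list had 1 increase (2.44% against 6.77% of all genes) and 3 decreases (7.32% against 3.44%). The nucleolar list had 4 increases (9.09%) and 2 decreases (4.55%) in that fit. Of 13 mitochondrially encoded genes edgeR called 0, 12 had negative values and the median was -0.32, or -0.20 without control 1. MT-CO1, a catalytic subunit of complex IV, stood at 11002, 7353 and 7131 against 4637, 4338 and 6329 CPM, with an edgeR adjusted p of 0.0546. Of 50 nuclear respiratory chain genes 2 rose (4%), and of 53 mitochondrial ribosome genes 3 rose (5.66%), MRPL1, MRPL3 and MRPS9, and 0 fell in either list. Without control 1 the respiratory chain list had 1 increase (2% against 6.77% of all genes) and 3 decreases (6% against 3.44%). The mitochondrial ribosome list had 4 increases (7.55%) and 4 decreases (7.55%) in that fit. The medians of the respiratory chain and mitochondrial ribosome lists went from 0.20 to 0.10 and from 0.16 to 0.07. MRPL3 stood at 96.7, 84.7 and 78.5 against 132, 117 and 168 CPM. NDUFS1, of complex I, stood at 190, 183 and 195 against 272, 241 and 301 CPM. Density-corrected, RPS3A went from 0.54 to 0.29, NDUFS1 from 0.52 to 0.27, NPM1 from 0.59 to 0.35, MRPL3 from 0.68 to 0.43, MRPS9 from 0.67 to 0.42 and U2AF2 from -0.67 to -0.18. None of these was called there, nor were RPL37, GAR1 and MRPL1.

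In metabolism, 2 of 36 glycolysis and hypoxia genes fell (5.56% against 2.4%) and 0 rose, with 28 negative values and a median of -0.32 and -0.30 without control 1. HK1, the hexokinase that starts glycolysis, had even values, at 282, 279 and 274 against 161, 179 and 161 CPM, and changed by -0.74 ± 0.16. PFKFB3, which makes the activator of phosphofructokinase, stood at 723, 360 and 402 against 181, 215 and 161 CPM. It was not called without control 1, at -1.04. Of 28 sterol genes 3 fell (10.7%) and 0 rose, with a median of -0.30. Without control 1 that list had 2 increases (7.14% against 6.77% of all genes) and 2 decreases (7.14% against 3.44%). The synthesis enzyme MVD was among the 3. Among 17 fatty acid genes FASN, the fatty acid synthase, fell from 604, 623 and 479 to 303, 371 and 212 CPM, the desaturase FADS2 fell, and the acyltransferase GPAM rose. FASN, FADS2, GPAM and MVD were not called without control 1, at -0.90, -0.45, 0.61 and -0.82, nor when density-corrected, at -0.54, -0.38, 0.41 and -0.82.

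Of stress and death genes a few rose and a few fell. Of 32 antioxidant genes 4 rose (12.5%) and 0 fell, but the median was 0.01. NFE2L2, the transcription factor NRF2, stood at 190, 133 and 158 against 267, 234 and 247 CPM, and a change of 0.64 ± 0.16 became 0.77 without control 1. TXN, GPX8 and GSTA4 were the other 3, GSTA4 and the heat shock gene HSPA4L being short of the threshold without control 1. This TXN locus is the one called uncertain above. The GPX8 locus counted here is on chromosome 2, at 614, 499 and 557 against 820, 748 and 1059 CPM. It is not the locus among the largest increases, which is on chromosome 35. Of 35 cell death genes 3 rose (8.57%), among them the caspase CASP6 and the cytochrome c gene CYCS, and 1 fell, the death-receptor adaptor FADD. CASP6 stood at 127, 135 and 136 against 223, 191 and 249 CPM. FADD stood at 8.35, 14.3 and 16.3 against 5.46, 7.28 and 5.14 CPM. Of 34 heat shock genes 1 rose, HSPA4L, and of 37 genes of the unfolded protein and integrated stress responses 1 rose, the chaperone HSP90B1, both within the background. Of 29 p53 targets CCNG2 rose (3.45% against 3.85%) and PLK2 fell (3.45% against 2.4%). In that list 19 values were negative, with a median of -0.42, -0.37 without control 1 and -0.31 density-corrected. Without control 1, 2 of the p53 targets were called higher (6.9% against 6.77%) and 0 lower. Density-corrected, 0 of them were called higher and 3 lower (10.3% against 1.4%). Of 38 lysosome and autophagy genes ATG5 rose, from 114, 92.4 and 107 to 158, 142 and 158 CPM, while ULK1, the kinase that starts autophagy, fell from 79.7, 99.1 and 80.0 to 54.3, 59.2 and 35.2 CPM. ATG2A fell as well. Of 20 clock genes the paired repressors NR1D1 and NR1D2 went opposite ways. NR1D1 fell from 31.3, 24.5 and 32.4 to 10.7, 13.7 and 16.6 CPM, and NR1D2 rose from 84.3, 63.9 and 76.5 to 129, 114 and 135 CPM. NR1D1 was not called without control 1, at -1.06 with an edgeR adjusted p of 0.0506. Density-corrected, NFE2L2, CYCS, HSP90B1, ATG5 and ATG2A went to 0.40, 0.40, 0.38, 0.32 and -0.54. They were not called there, nor were GSTA4, HSPA4L, CASP6, CCNG2, NR1D1 and NR1D2.

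Among genes of kidney identity, 4 of 32 tubule transcription factors fell (12.5%) and 1 rose, at a median of -0.09. PAX8, which helps specify the nephric lineage and is also 1 of the epithelial markers, stood at 371, 225 and 221 against 135, 143 and 100 CPM. It fell by 1.11 ± 0.24, and the value without control 1 was -0.82. PAX2, its relative, stood at 56, 35.6 and 33.4 against 19.5, 25.9 and 17.8 CPM and was not called without control 1, at -0.71 with an edgeR adjusted p of 0.0502. SIM2 and ESRP2, a splicing factor kept on this list, were the others to fall. LHX1, an early nephron factor, rose from 2.6, 3.22 and 1.95 to 6.38, 6.18 and 6.86 CPM. Of 30 renal transporters 1 rose and 1 fell, near the background. ATP1B1, the beta subunit of the sodium pump, stood at 425, 441 and 416 against 832, 712 and 787 CPM, a clean separation with a change of 0.86 ± 0.18 both with and without control 1. The potassium-chloride cotransporter SLC12A4 fell. EPCAM, an epithelial adhesion molecule, rose from 404, 383 and 407 to 606, 528 and 671 CPM. Of 9 mesenchymal transition factors, SNAI1 fell from 17.9, 11.5 and 15.2 to 3.92, 4.15 and 5.25 CPM, and its relative SNAI2 rose from 28.4, 39.4 and 35.9 to 51.2, 52.3 and 63.8 CPM. SNAI1 changed by -1.74 ± 0.28, or -1.59 without control 1, and SNAI2 by 0.69 ± 0.18, and by 0.56 without control 1, which was not called. Density-corrected, EPCAM, SLC12A4 and SNAI2 went to 0.39, -0.44 and 0.44, and neither they nor ESRP2 and LHX1 were called.

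**Figure D5:**
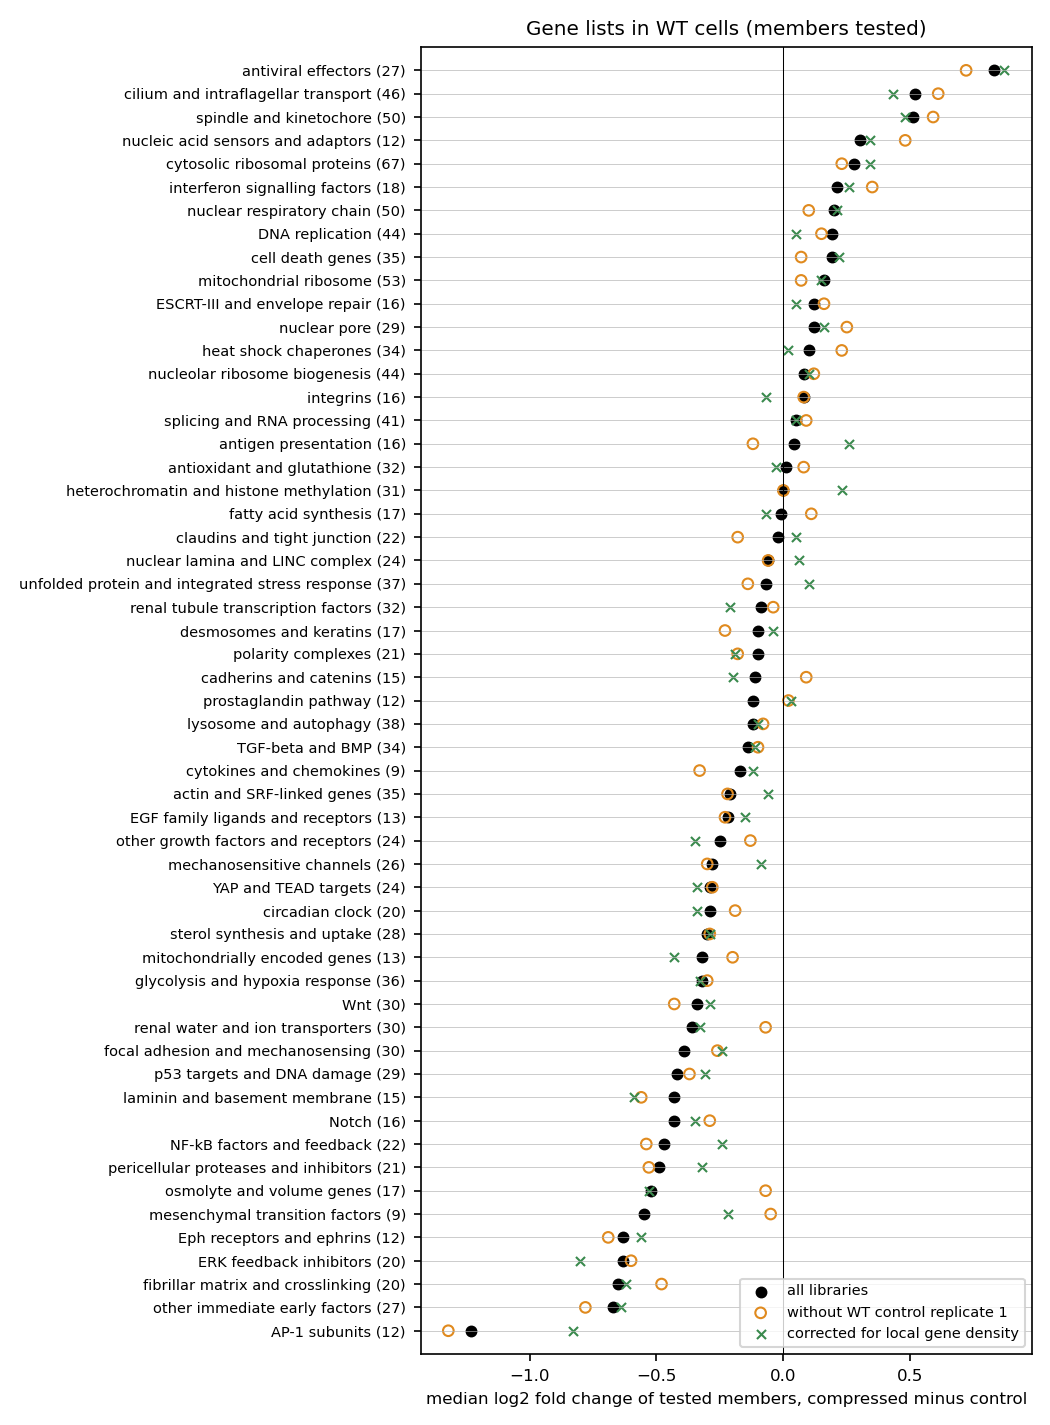
Median log2 fold change of the tested members of each gene list, compressed minus control (x axis), with all libraries (black), without WT control replicate 1 (orange rings) and corrected for local gene density (green crosses); the number of tested members follows each name. Antiviral effectors lead at 0.83 and AP-1 subunits end the order at -1.23, and the osmolyte and volume list moves from -0.52 to -0.07 without control 1.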

How the data were processed

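RNA was measured in 11 libraries of MDCKII cells, 6 of them WT, grouped and numbered by their titles. The labels' protocols describe oligo(dT) capture of messenger RNA and random-hexamer cDNA. Strand marking, the gene counter and the annotation release were not given in the sources used here, and overlapping or antisense genes may share reads. The submitters' processing notes name CASAVA, FastQC, HISAT2 2.0.5 and CanFam3.1. Raw whole-number counts were deposited by the authors for 26178 genes, with 0 entries naming no gene. The deposited FPKM values were made by the authors from those counts and their gene lengths. FPKM served to compare levels between genes and in alternatives. Symbols came from the gene name column (17598 genes) or a UniProt match (5701).

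The test used edgeR 4.0.16 in R 4.3.3, with filterByExpr, TMM scaling and a single quasi-likelihood model of the 4 groups in 11 libraries (7 residual degrees of freedom), two-sided, with Benjamini-Hochberg adjustment over 13560 genes and a threshold of 0.05. The KO libraries enter through the shared spread. CPM are TMM-scaled counts per 1000000. In data simulated for this comparison with 13560 genes, 40.5% of 200 genes changed 2-fold and 91.5% of 200 changed 4-fold were recovered. Of unchanged genes 2 and 8 were called in those runs, and 0 where no gene was changed. Simulated libraries were drawn independently around a single mean per gene, with no library set apart and no gene-density pattern. The simulation therefore does not show how the fit behaves with those features. WT totals of 10420214 to 15895296 counts leave genes under about 1 CPM with few reads.

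The members, the 59 gene lists, the rules and the tests were chosen with earlier results of these data known. Named genes were the 15 largest increases and decreases among genes called with and without WT control replicate 1, where the higher WT group averaged 5 CPM or more and the groups did not overlap; up to 3 called members per list and direction; the 8 genes moving most without that control; and the 10 most abundant called genes. Other called members are named to complete a count, and their values were chosen after they were seen. Some genes within these rules are not reported here. Replicates differed by more than sampling noise (chi-square per gene of 6.09 or more). Alternatives were DESeq2 1.42.0, other scaling and filters, limma 3.58.1 on log2 FPKM, the WT libraries alone, a replicate term and leaving out each library. Added after seeing the data were further fits without single libraries or without the 2 that stood apart, and lowess corrections for gene density and length.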

Additional observations from a re-analysis of the deposited data

How the results depend on the processing

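The number of called genes, 848, depended on the processing, and the cause of each shift was not tested unless named. DESeq2 called 2494 genes, 48.8% of them higher against 61.6% in the main result, edgeR with no filter on low counts called 1754 (47% higher), and the WT libraries alone called 2069 (49.7% higher). RLE scaling gave 847 and library size alone 615, and a fit with outlier-robust spread gave 848. Limma gave 0 on log2(FPKM + 1), 0 on the same scale with no filter and 1 on log2(FPKM + 0.1), the gene NMU, with 4160, 4562 and 4069 genes at an unadjusted p under 0.05. With a replicate block edgeR called 0 genes over all libraries (3439 at an unadjusted p under 0.05) and 2381 in the WT libraries alone. Same-numbered WT libraries correlated at -0.12, 0.20 and 0.01 in their deviations from the group means. The best match of control 2 was compressed 2, and that of controls 1 and 3 was compressed 3. The numbers were not taken to pair the samples, but with 3 libraries per group these values cannot settle whether they do. Leaving out each library in turn gave 0 to 3067 genes over all libraries. The WT control values are 1379, 1 and 1, the WT compressed values 0, 0 and 1, the KO control values 0 and 0 (3897 and 3899 at an unadjusted p under 0.05) and the KO compressed values 1229, 3067 and 913. In the WT libraries alone the counts were 4549 without control 1, 495 without control 2, 0 without control 3, and 0, 1666 and 0 without compressed 1, 2 and 3, with 3369, 3471 and 3444 genes at an unadjusted p under 0.05 where 0 were called. Of these WT fits those other than the one without control 1 were chosen after seeing the data, as were the next 4. Without both libraries that stood apart 8 genes were called over all libraries and 4985 in the WT libraries alone. The correction for gene density gave 421 and that for gene length 1183. Counting noise limits genes of a few CPM, such as NR4A1, most.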

Other observations

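Transcription factor families, as the deposited table annotates them, add a view across genes that the lists do not give. Of 38 bZIP factors 6 were called lower (15.8% against 2.4% of all genes) and 1 higher (2.63% against 3.85%). Their median log2 fold change was -0.45. Beside the AP-1 subunits, CREBZF fell by 1.29, and NFE2L2 was the one that rose. Of 19 forkhead factors 2 fell (10.5%) and 0 rose, FOXA2 and FOXP4, and 16 had negative values. The forkhead median was -0.63, -0.72 without WT control replicate 1 and -0.76 corrected for local gene density. Of 344 C2H2 zinc-finger genes 3 rose (0.872%) and 9 fell (2.62%), around a median of 0.02. In the ETS family the repressor ERF changed by -1.47 and GABPA by 0.74, the 2 called of 17 (5.88% each way). Among 29 HMG-box genes HMGB2, HMGXB4 and TFAM rose while CIC, SOX13 and TCF7 fell (10.3% each way). Corrected for local gene density, NFE2L2, GABPA, HMGB2, HMGXB4 and TFAM were not called, and FOXA2, HMGB2 and HMGXB4 were not called without control 1.

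Short RNAs that carry no poly(A) tail were measured in libraries of oligo(dT)-captured RNA and mostly had lower values after compression, none of them called. Of 100 small nucleolar RNA genes 76 had negative values, with a median of -0.48, or -0.26 without control 1, and edgeR called 0. Of 1162 loci that the authors assembled outside the annotation, 36 were called higher (3.1% against 3.85% of all genes) and 13 lower (1.12% against 2.4%), with a median of 0.14.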
